A study of Mus musculus with 14 samples.

Results

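The Rab, sorting nexin (Snx) and Vps genes of mouse lymph-node dendritic cells (DCs) were taken as every gene of the deposited normalized table whose symbol begins with Rab, Snx or Vps followed by a digit. This gave 108 of 10321 genes, made up of 50 Rab, 27 Snx and 31 Vps genes. Of the Rab genes, 41 encode GTPases and 9 encode proteins named for a Rab they bind or regulate (Rab11fip1 to Rab11fip5, Rab3gap1, Rab3gap2, Rab3il1 and Rab3ip). Their RNA was measured by Smart-seq2, a full-length cDNA method for polyadenylated RNA, in 14 libraries of 150 sorted cells. All 108 genes passed the filter on low counts and were tested.

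All mice were C57BL/6. Recipients of the biotin-sorted groups were Cd40G5/G5 (genotype G5-Cd40+/+ in the labels), so that CD40 carried the G5 tag on their DCs. They were given Cd40G5/G5 DCs (500000 per footpad) pulsed with the peptide OVA323-339 and, 18 hours later, 300000 CD4+ OT-II T cells of the genotype CD40lgSrtA/Y CD4-Cre. OT-II T cells recognise that peptide, and SrtA is a sortase, an enzyme that can join the biotin-LPETG substrate to a G5 tag on a cell in contact. The substrate (300 nmol per footpad) was injected 46 hours after the T cells, and the popliteal nodes were collected at 48 hours. The mice's own DCs, gated as MHC-II-high, CD11c+, CD11b+ and XCR1-, were sorted into biotin-positive (6 libraries) and biotin-negative cells (6 libraries). The third group (2 libraries) was sorted without a biotin gate from Cd40-/- mice treated likewise but given DCs and OT-II T cells that were both wild-type, so that host genotype, transferred DCs and transferred T cells cannot be told apart. The labels do not say whether each library is from a mouse of its own, so p-values reflect the spread among these 14 libraries.

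Total counts ran from 14518099 to 33260704 per library. Cd40 stood at 852 to 1309 CPM (counts scaled by TMM to a common library total) in biotin-positive, 386 to 598 CPM in biotin-negative and 53.3 to 74.2 CPM in Cd40-null libraries, and the 3 groups did not overlap. Of 8 DC markers, Flt3, Zbtb46 and Ccr7 were present in every library and not called between the biotin groups, Fscn1 was higher in biotin-positive libraries, and Itgax (CD11c), H2-Aa, H2-Ab1 and Cd74 were lower there. Itgax was at 48.6 to 63.7 CPM in the biotin-positive and 78.0 to 226 CPM in biotin-negative libraries, and H2-Aa, a chain of MHC-II, at 290 to 794 against 1004 to 2278 CPM. Of 8 markers of the CD11b+ type of DC (cDC2) 5 were lower and 0 higher. Itgam, which encodes the sort marker CD11b, was at 0.0516 to 5.88 CPM in the biotin-positive and 10.1 to 65.0 CPM in biotin-negative libraries, so its transcript was near absent from some libraries sorted as positive for it. Summed monocyte and macrophage markers (24 genes in the table) reached 146 to 307 CPM in the biotin-positive, 344 to 1790 CPM in biotin-negative and 421 to 734 CPM in Cd40-null libraries, and 11 of 22 tested were lower in biotin-positive libraries, with 0 higher. Of 5 Langerhans cell markers 3 were higher there. Of 7 tested markers of the XCR1+ type of DC (cDC1) 1 was higher and 0 lower. Among markers of plasmacytoid DCs, T, B and NK cells 0 were called. Summed T cell markers reached 24.8 to 57.6 CPM in biotin-positive, 19.7 to 98.5 CPM in biotin-negative and 33.6 to 119 CPM in Cd40-null libraries. Summed B cell markers reached 5.13 to 93.7, 9.79 to 49.2 and 6.40 to 60.6 CPM in the same order. Counts were found for 13090 to 13455 genes in biotin-positive and 14225 to 15742 genes in biotin-negative libraries. The ribosomal RNA gene Rn45s took 15.0% to 19.5% of counts in biotin-positive and 19.6% to 21.5% in biotin-negative libraries, without overlap. In such bulk libraries fewer cells of a type and less RNA per cell cannot be told apart, and the part of these differences in the results on Rab, Snx and Vps genes was not tested except by the covariates named below.

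Rab GTPases mark the membranes of the secretory and endocytic routes and, when loaded with GTP, recruit tethers, motors and coat proteins. Sorting nexins bind phosphoinositides through a PX domain, and many bend or tubulate endosomal membrane to return cargo to the Golgi or the cell surface. The Vps genes, named after yeast mutants in vacuolar protein sorting, include subunits of retromer, of the HOPS, CORVET, GARP and EARP tethers and of the ESCRT machinery. In DCs these routes carry internalised antigen, MHC molecules and surface receptors.

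Setting the biotin-positive against the biotin-negative DCs asks how cells that carried the label differ from cells that did not, after the same treatment. Of the 108 genes, 5 were higher in biotin-positive libraries (Snx11, Rab30, Rab23, Vps51 and Snx8), 1 was lower (Rab38) and 102 were not called, by edgeR's quasi-likelihood test at a Benjamini-Hochberg false discovery rate of 0.05 over 14217 genes. Over all genes tested 7.75% were called, 3.70% as higher and 4.05% as lower, and 10.0% among genes of the deposited normalized table. The share of Rab, Snx and Vps genes called, 5.56%, was thus near to and not above the background. Their median log2 change was 0.09, beside -0.03 over all genes tested and 0.01 over genes of the normalized table. The median size of their change regardless of sign was 0.25 on the log2 scale, beside 0.28 over the normalized table.

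**Figure D1:**
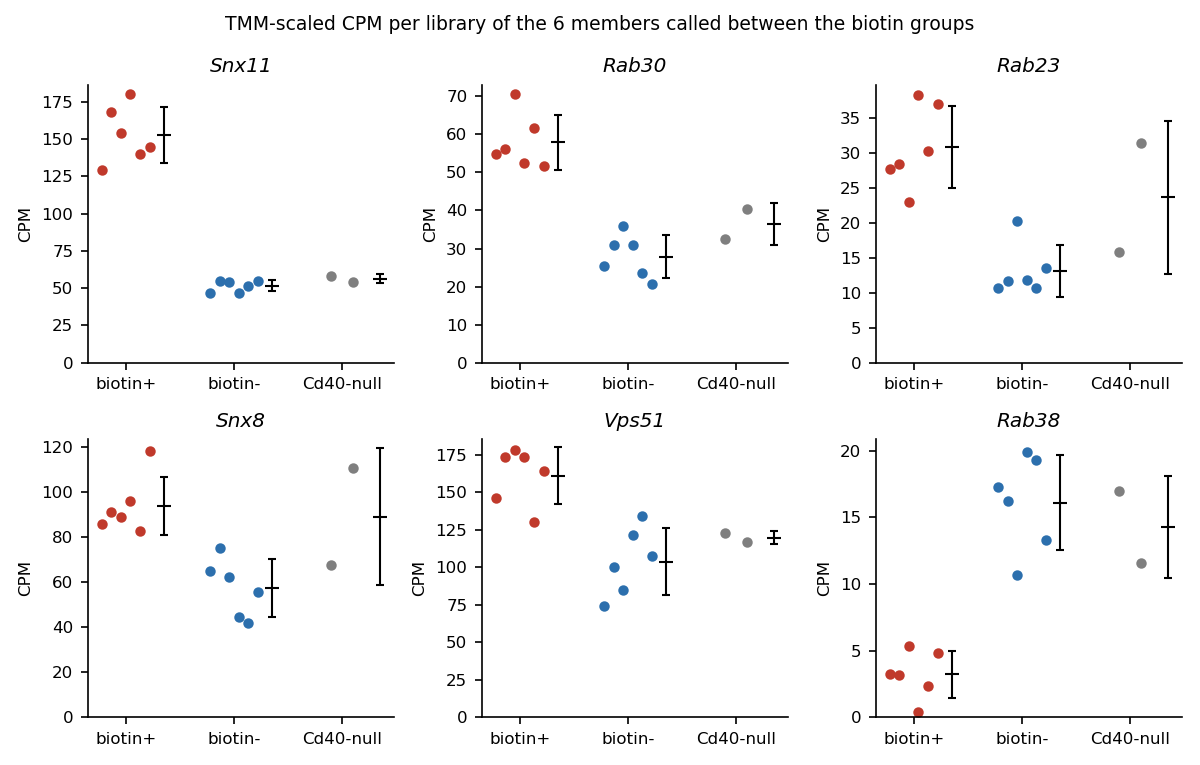
TMM-scaled CPM (vertical axes) of the 6 called genes in each library of the biotin-positive (n = 6), biotin-negative (n = 6) and Cd40-null (n = 2) groups, with points for libraries and bars for the mean and SD. Snx11 lies between 129 and 180 CPM in biotin-positive libraries and at or under 58.5 CPM in the others, whereas Rab38 lies at or under 5.39 CPM in biotin-positive libraries and at or above 10.7 CPM in the others.

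Snx11, a sorting nexin with a PX domain and little else, differed most clearly. Its lowest, median and highest levels were 129, 149 and 180 CPM in biotin-positive libraries, 47.0, 52.8 and 55.1 CPM in biotin-negative libraries, and 58.5 and 54.2 CPM in the Cd40-null libraries. Every biotin-positive library was above every library of the other groups, which lay close together. Relative to the biotin-negative group, Snx11 was 2.96-fold higher in biotin-positive libraries (log2 1.56, SE 0.11, adjusted p = 5.71e-07) and it exceeded the Cd40-null pair 2.71-fold (log2 1.44, SE 0.17, adjusted p = 0.000228). Between biotin-negative and Cd40-null libraries its log2 difference was -0.13 (SE 0.15, adjusted p = 0.864). The call in both comparisons with the biotin-positive group was kept in each of 14 other analyses and with each of the 14 libraries left out in turn. The gene lies on chromosome 11 from 96767546 to 96777712 (GRCm38), and 685 of its 4232 exon bases overlap the antisense gene Gm11537, whose reads cannot be told apart without strand.

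Rab30, a Rab of the Golgi, ran from 51.6 to 70.6 CPM in biotin-positive libraries (median 55.4), from 20.6 to 36.0 CPM in biotin-negative libraries (median 28.2), and was at 32.5 and 40.4 CPM in the Cd40-null libraries. Again no biotin-positive library overlapped another group. The difference between the biotin groups was 2.08-fold (log2 1.05, SE 0.16, adjusted p = 0.00051), and that from Cd40-null libraries was not called (log2 0.67, SE 0.23, adjusted p = 0.181). Rab30 lies on chromosome 7 from 92741637 to 92844535.

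Rab23, a GTPase known for restraining Hedgehog signalling at the primary cilium, was at 23.0, 29.3 and 38.3 CPM (lowest, median, highest) in the biotin-positive and 10.6, 11.7 and 20.3 CPM in biotin-negative libraries. The biotin groups did not overlap, while the Cd40-null libraries, at 15.9 and 31.3 CPM, lay on both sides of the gap. The log2 difference between the biotin groups was 1.23 (SE 0.23, adjusted p = 0.00282), and from Cd40-null libraries it was 0.38 (SE 0.33, adjusted p = 0.679). Rab23 lies on chromosome 1 from 33719896 to 33742564.

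Snx8, a sorting nexin with a BAR domain that acts in transport from endosomes to the Golgi, was at 82.8, 90.2 and 118 CPM in the biotin-positive and 41.8, 59.0 and 75.5 CPM in biotin-negative libraries. These groups did not overlap either, and the Cd40-null libraries were again spread, at 67.7 and 111 CPM. The log2 difference was 0.71 between the biotin groups (SE 0.17, adjusted p = 0.0133) and 0.07 from Cd40-null libraries (SE 0.23, adjusted p = 0.951). Snx8 lies on chromosome 5 from 140340293 to 140389308.

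Vps51, the subunit shared by the GARP and EARP tethers, was at 130, 169 and 179 CPM in the biotin-positive, 74.2, 104 and 134 CPM in biotin-negative, and 123 and 117 CPM in Cd40-null libraries. Here the biotin groups touched, since the highest biotin-negative library was above the lowest biotin-positive one. Vps51 was 1.55-fold higher (log2 0.63, SE 0.14, adjusted p = 0.00794). The gene, on chromosome 19 from 6067842 to 6077187, shares 532 of its 4520 exon bases with Tm7sf2 on the same strand. Tm7sf2, an enzyme gene of sterol synthesis at 17.8 ± 2.47 against 10.0 ± 3.47 CPM (SD, n = 6 each), had a log2 difference of 0.83 (SE 0.25, adjusted p = 0.0545), and the part of shared reads in the Vps51 difference was not tested.

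Rab38, known for its part in making melanosomes and other lysosome-related organelles, was the called gene that fell. It was at 0.425, 3.23 and 5.39 CPM in the biotin-positive, 10.7, 16.7 and 19.9 CPM in biotin-negative, and 17.0 and 11.6 CPM in Cd40-null libraries. The biotin-positive libraries were below every other library. Against the biotin-negative group Rab38 was 4.97-fold lower (log2 -2.31, SE 0.43, adjusted p = 0.00267) and against the Cd40-null pair it was lower too (log2 -2.14, SE 0.53, adjusted p = 0.0448). The latter call was lost in 5 of 14 other analyses and on leaving out a library in 11 of 14 cases, each library apart from biotin-positive replicates 3, 4 and 6, with an adjusted p of up to 0.408. Rab38 lies on chromosome 7 from 88430273 to 88491572.

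For Rab30, Rab23, Snx8, Vps51 and Rab38 the call between the biotin groups was kept with any 1 library left out and in 12 of 14 other analyses. It was lost for all of them with the count of detected genes as covariate (adjusted p from 0.421 to 0.811) and with the monocyte and macrophage marker level as a covariate (adjusted p from 0.0943 to 0.443). With the first covariate the log2 difference was 0.48 for Rab30, 0.62 for Rab23, 0.36 for Snx8, 0.44 for Vps51 and -2.10 for Rab38. With the second it was 1.33, 1.23, 0.82, 0.71 and -1.94 in the same order. Snx11 remained called under both, at log2 1.44 (adjusted p = 0.0450) and 1.65 (adjusted p = 0.00792). Both covariates differ between the biotin groups, and their part in these differences cannot be told apart from that of the label.

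**Figure D2:**
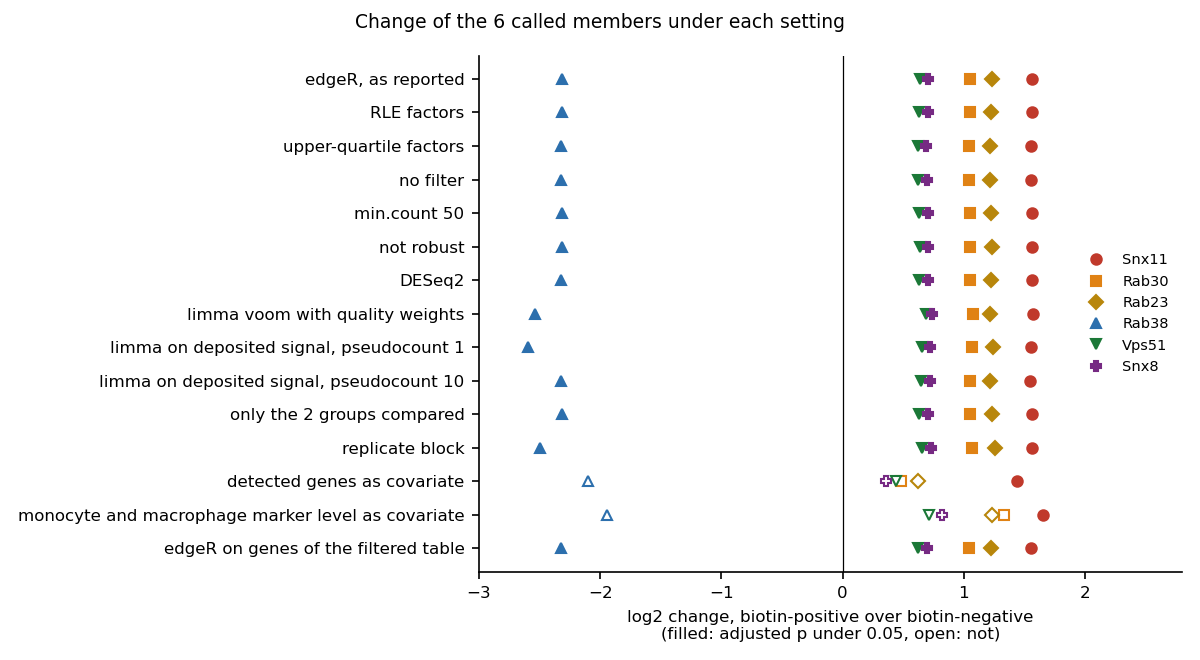
Log2 change of the 6 called genes between biotin-positive and biotin-negative libraries (horizontal axis) under each analysis setting (vertical axis), with filled symbols where the adjusted p was under 0.05 and open symbols where it was not. Snx11 is filled under every setting, whereas the other 5 genes are open with the number of detected genes or the marker level as a covariate.

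Promoter sequences of RefSeq (GRCm38.p6) were matched for 82 of the 108 genes, and for 3 of the 6 called ones. The bases before the annotated start are printed for these 3, the called genes that had a window, 5′ to 3′ on the strand of the gene. Capitals mark the E-box CACGTG, a palindrome that reads the same on both strands and is bound by basic helix-loop-helix factors. For Rab23 the window of the first of 2 annotated starts is shown. For Snx11 the window belongs to a start inside the gene span given above, so part of the printed bases lies within that span.
Snx11, chr11:96777556-96777805, minus strand: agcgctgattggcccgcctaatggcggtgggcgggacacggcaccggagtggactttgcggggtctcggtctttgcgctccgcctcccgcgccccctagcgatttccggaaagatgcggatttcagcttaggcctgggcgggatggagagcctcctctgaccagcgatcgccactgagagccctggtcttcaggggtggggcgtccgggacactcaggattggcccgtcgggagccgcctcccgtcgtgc
Rab23, chr1:33719646-33719895, plus strand: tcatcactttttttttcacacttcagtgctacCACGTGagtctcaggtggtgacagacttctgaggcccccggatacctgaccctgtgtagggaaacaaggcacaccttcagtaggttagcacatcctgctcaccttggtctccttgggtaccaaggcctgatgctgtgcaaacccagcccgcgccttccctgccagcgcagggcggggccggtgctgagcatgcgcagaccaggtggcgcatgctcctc
Snx8, chr5:140389309-140389558, minus strand: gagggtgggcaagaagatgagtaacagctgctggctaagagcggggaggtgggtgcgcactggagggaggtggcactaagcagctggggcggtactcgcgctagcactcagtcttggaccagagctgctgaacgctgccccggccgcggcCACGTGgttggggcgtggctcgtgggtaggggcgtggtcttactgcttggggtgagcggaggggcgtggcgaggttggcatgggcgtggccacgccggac
CACGTG begins 218 bases before the start in Rab23 and 100 bases before it in Snx8, and these letters are not in the Snx11 window or in the second Rab23 window. Windows of 14 of the 82 genes (17.1%) hold CACGTG, beside 8.09% of the 27025 genes in the RefSeq table. The AP-1 motif TGANTCA was found for 6.10% against 8.97%, the NF-kB consensus for 13.4% against 9.55% and the interferon-stimulated response element (ISRE) consensus for 3.66% against 3.99%, on either strand and in the same windows, and none of these is in the windows of the 3 genes. Such matches describe the letters alone.

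By role, 1 of the 10 Rabs of the endoplasmic reticulum and Golgi was called (Rab30), a share equal to the 10.0% of the normalized table. The log2 difference was positive for 9 of the 10, beside 69 of all 108 genes and 6754 of the 14217 tested, and its median was 0.37, beside 0.09 for the 108. Whether the group differs from other genes was not tested. Unadjusted p-values under 0.05 were reached by 5 of them with a positive and by 1 with a negative difference. Rab1 (Rab1a in RefSeq) and Rab1b, which act between the endoplasmic reticulum and the Golgi, had log2 differences of 0.24 (adjusted p = 0.215) and 0.33 (adjusted p = 0.0822). Rab2a, on the same route, had 0.46 (adjusted p = 0.174), and Rab43, a Golgi Rab, 0.40 (adjusted p = 0.135). Of the 5526 exon bases of Rab43, 4164 overlap a second annotated gene on the same strand. Rab18, which acts at the endoplasmic reticulum and lipid droplets, was the exception at -0.40 (adjusted p = 0.221). Across all genes tested 21.1% had an unadjusted p under 0.05, and 23 of the 108 did.

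None of the 7 Rabs of early endosomes was called. The Rab5 GTPases drive fusion of early endosomes, Rab4b serves fast recycling, and Rab21, Rab22a and Rab31 act on early endosomes and routes from the Golgi to them. All 7 had log2 differences between -0.10 and 0.30 and none had an unadjusted p under 0.05. Rab5b ran from 149 to 198 CPM (median 161) in the biotin-positive and from 142 to 178 CPM (median 157) in biotin-negative libraries, with 175 and 180 CPM in the Cd40-null libraries. The groups overlapped almost fully. Rab5a was lower and more variable, at 23.2 ± 10.2 against 24.9 ± 15.0 CPM (SD, n = 6 each).

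Late endosomal and lysosomal Rabs went different ways. Of 10 such Rabs 4 had a positive log2 difference, and the range was -2.31 to 1.03. Besides the called Rab38, 1 had an unadjusted p under 0.05, with a positive difference. Rab39, not called, ran from 3.90 to 16.8 CPM in the biotin-positive and from 1.14 to 11.5 CPM in biotin-negative libraries. Rab7, the main Rab of late endosomes, was at 81.0 ± 10.7 against 67.6 ± 10.7 CPM (log2 0.26, adjusted p = 0.285), and Rab9, which serves return from late endosomes to the Golgi, at 93.7 ± 11.2 against 110 ± 18.6 CPM (log2 -0.24, adjusted p = 0.304). Rab32, the close relative of Rab38 in making lysosome-related organelles, was at 157 ± 26.2 against 177 ± 27.0 CPM (log2 -0.18, adjusted p = 0.51). Its groups overlapped. Rab27a, which docks secretory lysosomes at the plasma membrane, was grouped by role with regulated secretion. Its levels were 7.32, 13.5 and 27.9 CPM in the biotin-positive and 13.1, 32.2 and 49.2 CPM in biotin-negative libraries. The Cd40-null libraries were at 37.0 and 39.4 CPM. The biotin groups overlapped, and the log2 difference of -1.07 (SE 0.33) narrowly missed the threshold (adjusted p = 0.0545).

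The recycling Rabs had 0 of 8 called. Rab8b, which with Rab8a delivers membrane to the cell surface, was at 787 ± 49.0 CPM in the biotin-positive, 728 ± 109 CPM in biotin-negative and 600 ± 86.6 CPM in Cd40-null libraries. Rab8a was at 206, 248 and 268 CPM in the biotin-positive and 177, 197 and 225 CPM in biotin-negative libraries, with a log2 difference of 0.28 (SE 0.09, adjusted p = 0.0749). The Rab11 pair, the GTPases of the recycling endosome, stayed close together. Rab11a differed by -0.07 and Rab11b by -0.02 on the log2 scale (adjusted p = 0.812 and 0.966). Rab13, a low-level relative of Rab8, was at 6.03, 8.03 and 10.9 CPM in the biotin-positive and 1.46, 3.64 and 5.34 CPM in biotin-negative libraries. Its biotin groups did not overlap, but the log2 difference of 1.20 (SE 0.40) was not called (adjusted p = 0.0758). The Rab11 effector Rab11fip4 had the largest positive estimate, 2.39, with a wide error (SE 0.86, adjusted p = 0.107). Rab3il1 had the most negative estimate, -2.46, and was not called either. It ran from 0 to 3.73 CPM in biotin-positive and from 0 to 25.7 CPM in biotin-negative libraries. Close paralogs such as Rab1 and Rab1b, Rab8a and Rab8b or Rab11a and Rab11b can share short reads, so levels within such a pair are less certain than those of other genes.

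Among the Rab genes in all, 2 rose, 1 fell and 47 were not called, and biotin groups did not overlap for Rab13, Rab23 and Rab30 above and Rab38 below. Over the 108 genes 5 were wholly above and 2 wholly below, beside 5.02% of all genes tested (2.60% above, 2.41% below). The other 3 were Snx11 and Snx8 above and Snx5 below.

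**Figure D3:**
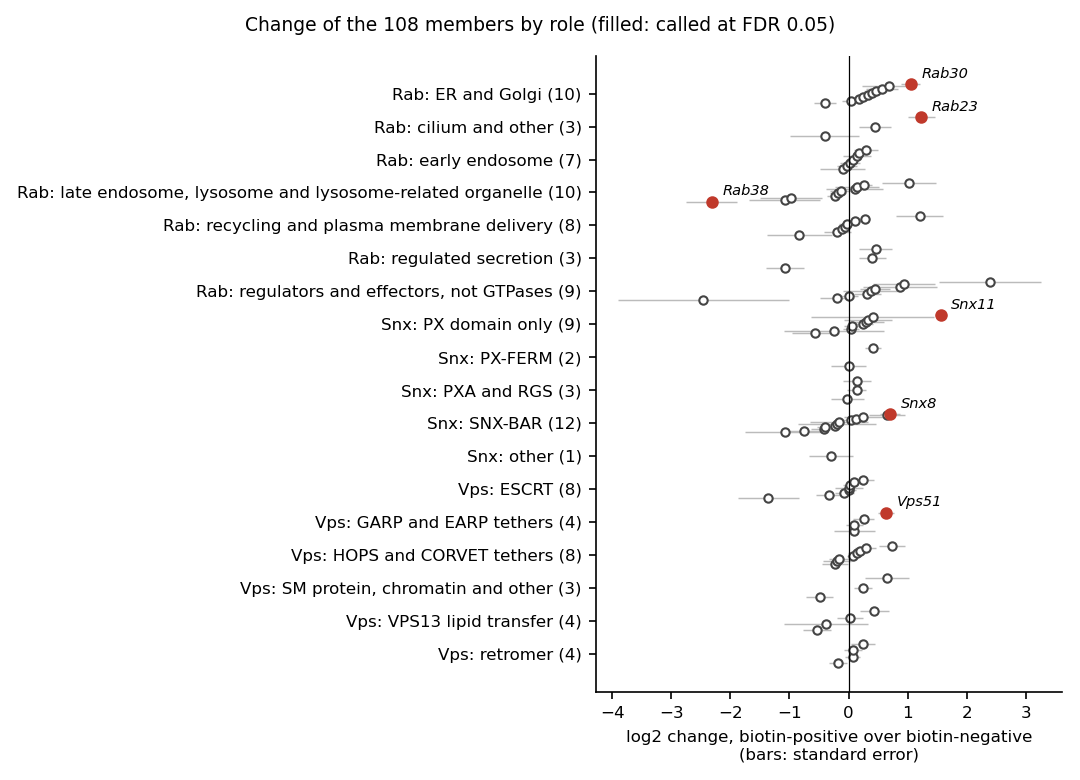
Log2 change between biotin-positive and biotin-negative libraries (horizontal axis) of all 108 genes, one point each with its standard error, grouped by role with the number of genes in brackets. Filled points are the 6 called genes, and most of the others lie near 0, with 9 of 10 Rabs of the endoplasmic reticulum and Golgi on the positive side.

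Sorting nexins with a BAR domain, which form membrane tubules, had a median log2 difference of -0.18 with Snx8 as the 1 called of 12. Snx1, Snx2, Snx5 and Snx6 are known to work as pairs, 1 of the first with 1 of the second, and Snx5 had the smallest p of these. Snx5 was at 69.1, 90.9 and 102 CPM in the biotin-positive and 102, 115 and 134 CPM in biotin-negative libraries, with 147 and 124 CPM in the Cd40-null libraries. Its biotin-positive libraries lay just below all the others. The log2 difference was -0.41 (SE 0.12, adjusted p = 0.054) from biotin-negative and -0.62 (SE 0.17, adjusted p = 0.0653) from Cd40-null libraries. Snx6, the paralog of Snx5, had a difference of 0.12 (adjusted p = 0.747) from biotin-negative libraries, and Snx1 and Snx2 had -0.23 and -0.41 (adjusted p = 0.25 and 0.289).

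Snx17 and Snx27 carry a FERM-like domain and pick cargo for return to the cell surface. Snx17 was at 131, 161 and 177 CPM in the biotin-positive and 87.5, 118 and 150 CPM in biotin-negative libraries, with a log2 difference of 0.42 (SE 0.13, adjusted p = 0.0677). The groups overlapped, and Snx17 shares 204 exon bases with Eif2b4, which had a log2 difference of 0.59 (adjusted p = 0.0801). Snx27, the retromer cargo adaptor, was at 19.5 ± 6.31 against 19.5 ± 7.18 CPM. Snx3, the PX-only partner of retromer, was equally even at 125 ± 14.8 against 121 ± 19.9 CPM. Apart from Snx11, no PX-only sorting nexin of 9 was called.

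Retromer, which returns receptors from endosomes, did not differ detectably between the biotin groups in any of its 4 Vps subunits. Vps35, its scaffold, was at 198, 255 and 326 CPM in the biotin-positive, 161, 247 and 333 CPM in biotin-negative, and 256 and 237 CPM in Cd40-null libraries. Vps26a was at 122 ± 20.5 against 117 ± 13.7 CPM, Vps26b at 62.9 ± 19.7 against 53.1 ± 7.33 CPM and Vps29 at 41.1 ± 7.68 against 46.3 ± 5.65 CPM. The log2 differences ran from -0.17 to 0.24, and none had an unadjusted p under 0.05.

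The 8 genes grouped as HOPS and CORVET tethers, which dock late and early endosomes, had log2 differences from -0.23 to 0.74. Vps18, a core subunit of both, was at the upper end, with 67.1, 83.3 and 146 CPM in the biotin-positive, 27.4, 57.1 and 77.5 CPM in biotin-negative, and 71.1 and 63.5 CPM in Cd40-null libraries. The biotin groups overlapped, and the difference was not called (SE 0.23, adjusted p = 0.0576). Of the other core subunits, Vps11 had 0.14, Vps16 -0.16 and Vps33a 0.29, so Vps18 was the 1 gene of the group with an unadjusted p under 0.05. Vps39, a subunit of HOPS, was the highest Vps gene per kb of transcript, and was at 477 ± 63.8, 451 ± 46.8 and 409 ± 55.2 CPM in the 3 groups.

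ESCRT subunits sort ubiquitylated cargo into the vesicles of multivesicular bodies. Of 8 Vps genes of ESCRT none was called, and their median log2 difference was 0.01. Vps37b, 1 of the exchangeable ESCRT-I subunits, was lowest at 4.69 ± 2.50 against 12.0 ± 6.74 CPM (log2 -1.36, SE 0.52, adjusted p = 0.127), while Vps37a and Vps37c had 0.24 and -0.33. The ATPases Vps4a and Vps4b, which disassemble ESCRT-III, had -0.07 and 0.03. Of the 4 GARP and EARP genes, Vps52, Vps53 and Vps54 had 0.10, 0.25 and 0.10 beside the called Vps51.

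The VPS13 proteins move lipids between membranes, and their 4 genes had a median log2 difference of -0.18. Vps13a was at 17.9, 26.5 and 34.1 CPM in the biotin-positive and 24.0, 37.8 and 48.6 CPM in biotin-negative libraries. That is a log2 difference of -0.53 (SE 0.23, adjusted p = 0.198). The groups overlapped.

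**Figure D4:**
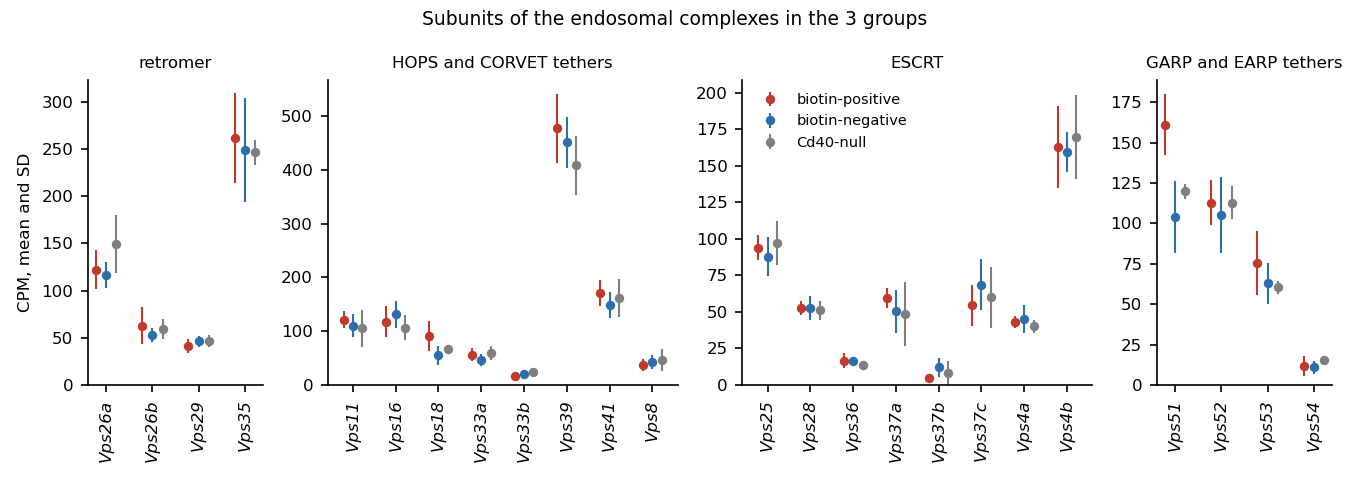
Mean CPM with SD (vertical axes) of the Vps subunits of retromer, the HOPS and CORVET tethers, ESCRT and the GARP and EARP tethers in biotin-positive (n = 6), biotin-negative (n = 6) and Cd40-null libraries (n = 2). Vps39 has means of 409 to 477 CPM in the 3 groups, and Vps51, the 1 called subunit, has means of 161 against 104 CPM in the biotin groups, whose libraries overlap slightly.

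Biotin-positive and Cd40-null libraries, and likewise biotin-negative and Cd40-null libraries, were compared to set each biotin group against DCs without CD40. Both comparisons share the same 2 Cd40-null libraries, so their values are given side by side and not as separate evidence. In biotin-positive relative to Cd40-null libraries 1 of 108 genes was higher (Snx11) and 1 lower (Rab38). Over all genes tested 2.27% were called there (1.22% higher, 1.05% lower). Unadjusted p-values under 0.05 were reached by 11 genes with a positive and 6 with a negative difference, where 13.8% of all genes did so. In biotin-negative relative to Cd40-null libraries edgeR called 0 of the 108. Among all genes tested 0.317% were called there (0.274% higher, 0.0422% lower). At an unadjusted p under 0.05 there were 2 positive and 5 negative differences, beside 9.22% of all genes. DESeq2 called 1 there (Rab14), limma voom 0, and limma on the deposited signal 1 (Rab14).

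Rab14, which carries membrane between the Golgi and endosomes, had the smallest p where biotin-negative DCs were set against the Cd40-null pair. It was at 233, 274 and 314 CPM in the biotin-positive, 265, 301 and 318 CPM in biotin-negative, and 206 and 193 CPM in the Cd40-null libraries. Both Cd40-null libraries were below every biotin-sorted library. The log2 difference from Cd40-null libraries was 0.58 (SE 0.13, adjusted p = 0.0899) for biotin-negative and 0.47 (SE 0.13, adjusted p = 0.0742) for biotin-positive libraries. Neither passed the threshold in edgeR.

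Rab43 was at 131, 149 and 172 CPM in the biotin-positive, 81.5, 106 and 156 CPM in biotin-negative, and 99.8 and 66.5 CPM in the Cd40-null libraries. The Cd40-null libraries were below the biotin-positive ones and overlapped the biotin-negative ones. Its log2 difference from Cd40-null libraries was 0.84 (adjusted p = 0.0697) for biotin-positive and 0.44 (adjusted p = 0.571) for biotin-negative libraries. Rab27a stood at -1.31 (adjusted p = 0.143) and -0.24 (adjusted p = 0.934) in the same order.

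Vps13d and Vps51 led the Vps genes by p where biotin-positive DCs were set against the Cd40-null pair, at log2 0.93 (adjusted p = 0.255) and 0.43 (adjusted p = 0.353). In the biotin-negative comparison Snx8 (-0.63, adjusted p = 0.383), Rab23 (-0.85, adjusted p = 0.403) and Rab2a (-0.74, adjusted p = 0.381) had negative estimates that were not called. Biotin-positive groups were wholly above the Cd40-null pair for 11 of the 108 genes and wholly below it for 7, where 15.9% of all genes did not overlap (7.81% above, 8.07% below). For biotin-negative libraries the numbers were 2 and 4, where 10.7% of all genes did not overlap (6.23% above, 4.47% below). With 2 libraries in a group such separation is common, as these shares show.

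Scaled by the length of the longest annotated protein-coding transcript, levels can be compared roughly between genes. Which transcripts were expressed was not determined, and Rab8b and Rab11a can share reads with their paralogs. Rab8b (149 CPM per kb), Rab11a (88.7) and Rab32 (83.9) were the highest Rabs per kb, Snx3 (89.8 CPM per kb), Snx1 (69.8) and Snx17 (69.2) the highest sorting nexins, and Vps39 (102 CPM per kb), Vps25 (76.2) and Vps35 (72.6) the highest Vps genes. Snx11 reached 34.1 CPM per kb and Rab38 7.10. The lowest was Vps13c, at 0.408 CPM per kb. None of the 9 highest genes was called in any of the 3 comparisons.

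Of the symbols that fit the pattern in the count table, 21 of 129 are not in the normalized table. They are low, 14 of them were tested, and edgeR called 0 in each comparison, with 1 gene at an unadjusted p under 0.05 between the biotin groups. That gene, Rab40b, encodes a Rab-like subunit of a ubiquitin ligase. It was at 3.49 to 8.43 CPM in biotin-positive libraries, 0 to 2.10 CPM in biotin-negative libraries and 0.523 and 0.516 CPM in the Cd40-null libraries. Its biotin-positive libraries were above all others, and the log2 difference was 3.11 (SE 0.93, adjusted p = 0.0519). Rab4a, the paralog of Rab4b, was at 0 counts in both Cd40-null libraries and at 0.925 and 0.888 CPM on average in the biotin-positive and biotin-negative groups.

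Genes that act with these families were described from lists of the pathway. Of 55 genes that load, escort, activate or switch off Rabs, 5 rose in biotin-positive against biotin-negative libraries and 0 fell. These are 9.09% of the list, near the background of 7.75% of all genes tested and 10.0% of the normalized table. Tbc1d4, a GTPase-activating protein for Rabs of the recycling route, rose to 2667 ± 399 CPM from 1800 ± 250 CPM (SD, n = 6 each; log2 0.57, SE 0.11, adjusted p = 0.00323). Tbc1d10a, which acts on Rab27a and Rab35, had a log2 change of 0.42 (adjusted p = 0.0294), and Rabgef1, the exchange factor for Rab5, 0.51 (adjusted p = 0.0428). Mon1a, part of the exchange factor for Rab7, and Tbc1d15, which acts on Rab7, also rose (log2 0.82 and 0.36). Over this list the median log2 difference was 0.02, and its median size regardless of sign was 0.30, beside 0.28 over the normalized table.

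Of 31 tested effectors and tethers outside the 3 families 2 rose and 0 fell, a share of 6.45% beside 7.75% of all genes tested. Micall1, a recycling endosome scaffold that binds Rab8 and Rab35, rose to 66.8 ± 12.9 CPM from 34.6 ± 7.60 CPM (log2 0.95, SE 0.19, adjusted p = 0.00417), and Unc13d, the Rab27a effector of granule release, had a log2 change of 0.57 (adjusted p = 0.0243). Of 17 phosphoinositide enzymes 3 rose and 0 fell (17.6%, beside the same 7.75% and 10.0% of the normalized table). These were the 5-phosphatase Inpp5b, from 130 ± 35.2 to 295 ± 59.4 CPM (log2 1.19, SE 0.18, adjusted p = 0.000426), and the 3-phosphatases Mtmr4 and Mtmr6 (log2 0.76 and 0.37), which act on the lipid that PX domains bind.

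Of 23 tested genes of the WASH, Commander and EHD groups Commd10 rose (log2 0.61, SE 0.13, adjusted p = 0.00586) and Fam21, a WASH complex subunit that binds retromer, fell (log2 -0.61, SE 0.16, adjusted p = 0.0284). Of 23 endosomal SNARE genes and regulators Stxbp3a (log2 -0.59, SE 0.13, adjusted p = 0.00722) and Stx3 (log2 -2.58, SE 0.74, adjusted p = 0.0417) fell and 0 rose. Each of these lists had 8.70% called, near the 7.75% of all genes tested. Of 24 ESCRT genes without a Vps symbol edgeR called 0 between the biotin groups, and 1 had an unadjusted p under 0.05.

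Rin3, an exchange factor of the Rab5 family, was the pathway gene that set both biotin groups apart from the Cd40-null libraries. It was at 74.0 ± 7.86 CPM in the biotin-positive, 76.9 ± 8.37 CPM in biotin-negative and 28.9 ± 1.34 CPM in Cd40-null libraries. Its log2 difference from the last was 1.35 (SE 0.18, adjusted p = 0.000627) for biotin-positive and 1.41 (SE 0.18, adjusted p = 0.00101) for biotin-negative libraries. Tbc1d14 (log2 1.41, adjusted p = 0.00235), Dennd4a (0.94, adjusted p = 0.0148) and Tbc1d15 (0.66, adjusted p = 0.033) were called in addition between biotin-positive and Cd40-null libraries. With Rin3 they are 7.27% of the 55 genes that act on the Rab cycle. Beside this stand 2.27% of all genes tested and 3.00% of the normalized table. For biotin-negative libraries Rin3 was the only one called, 1.82% beside 0.317% of all genes tested and 0.436% of the normalized table. Whether the differences from Cd40-null libraries follow from the host genotype or from the transferred cells cannot be told apart.

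Within groups, the 108 genes had a median coefficient of variation of 24.3% in both biotin groups. Rab8b was steadiest over biotin-positive libraries (6.23%) and Rab14 over biotin-negative libraries (6.83%). The widest spread was that of Snx20, a sorting nexin of leukocytes that binds PSGL-1, with 152% and 156%. Variation above 50% was seen for 12 genes over the biotin-positive and 20 over the biotin-negative libraries, most of them at low levels.

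Snx20 and Snx18 varied between libraries in a shared way that the groups do not follow, a pattern chosen after the values were seen. Snx18, a sorting nexin with SH3 and BAR domains that acts in endocytosis, was at 133 and 107 CPM in biotin-positive replicates 1 and 2 and at 24.8 to 41.2 CPM in the other biotin-positive libraries. It was at 123 and 192 CPM in biotin-negative replicates 5 and 6, beside 20.7 to 29.6 CPM in the rest of that group, and at 77.0 and 16.4 CPM in Cd40-null replicates 1 and 2. Snx20 was high in the same libraries, with 73.6 and 20.6 CPM in biotin-positive replicates 1 and 2, 13.5 and 57.3 CPM in biotin-negative replicates 5 and 6, and 75.4 and 4.23 CPM in the Cd40-null libraries. The remaining libraries held 1.92 to 4.90 CPM of Snx20.

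**Figure D5:**
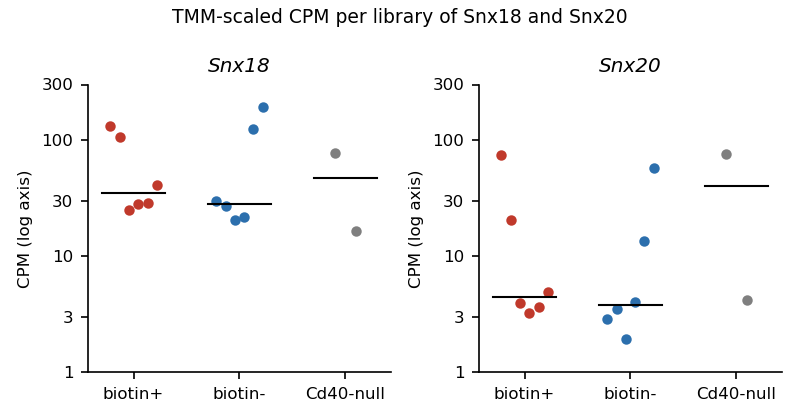
CPM on a log axis of Snx18 and Snx20 in each library of the 3 groups, with a point for each library and a bar for the median of its group. In each group 1 or 2 libraries lie far above the rest, up to 192 CPM for Snx18 and 75.4 CPM for Snx20.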

How the data were processed

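RNA of 14 libraries was measured by Smart-seq2 with paired reads of 38 bp. Per the submitters' processing notes the submitters used Bowtie2 (2.1.0), RSEM (1.2.8) and DESeq2 (1.16.0) on build mm10. The role of each tool and the gene annotation are not given in the sources used here. The authors deposited expected counts for 23420 gene symbols, which are whole numbers, and a normalized signal for 10321 genes. Each deposited signal value is the count over a constant for its library, within a relative deviation of 5.05e-15.

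Expected counts, rounded to whole numbers, were tested in R 4.3.3 with edgeR 4.0.16 (filterByExpr with groups and min.count 10, TMM, glmQLFit with robust=TRUE, glmQLFTest, two-sided). All 14 libraries entered 1 fit with a group factor, and p-values were adjusted over 14217 genes at a false discovery rate of 0.05. CPM are TMM-scaled. The fold change's standard error is its absolute log2 value over the square root of F. Transcript lengths and exon overlaps are of GENCODE M21 (GRCm38), and gene positions are of RefSeq (GRCm38.p6). Lengths of RefSeq transcripts had been planned. The pipeline was tested on simulated counts in which 200 genes were changed. Of 2-fold changes it recovered 26.5% between the biotin groups, 8.5% for biotin-positive against Cd40-null and 5% for biotin-negative against Cd40-null. For 4-fold changes the shares were 58.5%, 47.5% and 49.5% in the same order. A gene that was not called may therefore still differ.

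The genes and lists were chosen with earlier results of these data known. Named with values were genes called in any comparison, those with the smallest p of each family, all retromer subunits, the 3 highest per kb of each family and up to 3 called genes of each pathway list. Others named were chosen after their values were seen. Alternatives used RLE or upper-quartile factors, no filter or a min.count of 50, a fit that was not robust, DESeq2 1.42.0, limma 3.58.1 (voom with quality weights, or on log2 of the deposited signal with a pseudocount of 1 or 10), a fit of just the compared groups, a replicate block, 2 covariates, and leaving out each library. A fit on the genes of the normalized table was added after seeing the data. Molecules were not tagged before amplification, so reads are not independent. Whether the library number or depth limits precision more was not tested.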

Additional observations from a re-analysis of the deposited data

Results flagged for a closer look

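In groups of 6 libraries, the highest or lowest library was tested for its distance from the rest in 45 of the 108 genes, which gave 90 groups. In 6 of them 1 library stood apart. The 45 genes were those with an unadjusted p under 0.05 in any comparison and the retromer subunits. To these were added the 3 highest per kb of each family and the 3 most variable in both biotin groups. Because some were chosen for their spread, the rate of about 1 in 20 for unselected normal values does not apply, and no conclusion is drawn from the count. Rab18 was at 59.0 CPM in biotin-negative replicate 2, with the next library at 113 CPM. Rab23 was at 20.3 CPM in biotin-negative replicate 3, where the next highest was 13.6 CPM. Snx8 was at 118 CPM in biotin-positive replicate 6, above 95.9 CPM in the next, and Vps18 at 146 CPM in biotin-positive replicate 5, above 94.5 CPM. Snx20 stood apart in both biotin groups, at 73.6 CPM in biotin-positive replicate 1, where the next was 20.6 CPM, and at 57.3 CPM in biotin-negative replicate 6, where the next was 13.5 CPM. Without biotin-negative replicate 2, Rab18 was called lower in biotin-positive libraries. Rab23 and Snx8 kept their calls without the library named for each, and Vps18 and Snx20 were not called with or without theirs.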

How the results depend on the processing

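Between the biotin groups, 5 genes were higher and 1 lower in the analysis reported. The number higher was 11 with DESeq2, 8 with limma voom, 9 with limma on the deposited signal at either pseudocount, 6 on the genes of the normalized table, and 1 with the count of detected genes or the marker level as a covariate. The number lower was 2 with RLE factors, upper-quartile factors, no filter or limma voom, 3 with a min.count of 50, DESeq2, limma on the deposited signal at either pseudocount or the genes of the normalized table, and 0 with either covariate. Each added gene was Snx5, Rab27a, Vps18, Snx17, Rab13, Rab11fip4, Rab8a or Rab1b. Leaving out 1 library gave 5 to 7 higher and 1 to 3 lower. The lower count was 3 without biotin-positive replicate 5 (Rab27a and Snx5 added) and 2 without biotin-negative replicate 2 (Rab18), 5 (Snx5) or 6 (Rab27a).

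Against Cd40-null libraries, 1 gene was higher and 1 lower in biotin-positive libraries. The number higher was 4 with DESeq2, 2 with limma voom, 3 and 2 with limma on the deposited signal at a pseudocount of 1 and 10, 2 with the count of detected genes as covariate, and 1 to 2 on leaving out a library (2, with Rab43, without biotin-negative replicate 1). The number lower was 2 with DESeq2 and limma voom, 0 with only the 2 groups compared and with either covariate, and 0 to 1 on leaving out a library. For biotin-negative libraries 1 gene was higher with DESeq2 and with limma on the deposited signal at either pseudocount, where edgeR called 0. The cause of these changes was not tested. Across all genes the calls between the biotin groups fell to 6 higher and 5 lower with detected genes as a covariate, and to 50 and 33 with the marker level.

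With the replicate number as a block, 6 genes were higher and 2 lower between the biotin groups (Vps18 and Rab27a added), and 1 was higher and 0 lower against Cd40-null libraries. Deviations of libraries with the same number had correlations from -0.0226 to 0.0132, so the numbers gave no sign of pairing, and 1 of 6 correlated best with its own number.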

Other observations

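Some or all of the libraries with most Snx18 and Snx20 also stood apart for other genes, chosen after their values were seen. The lysosomal membrane gene Lamp1 was at 706 and 259 CPM in biotin-positive replicates 1 and 2 against 44.3 to 120 CPM in the others, at 355 and 1020 CPM in biotin-negative replicates 5 and 6, and at 1252 and 136 CPM in the Cd40-null libraries. Rac1, a GTPase of the actin cytoskeleton, was at 401 CPM in biotin-positive replicate 1, 416 CPM in biotin-negative replicate 6 and 362 CPM in Cd40-null replicate 1. Rab10, which delivers membrane to the cell surface, was highest in biotin-positive replicate 1 (132 CPM), biotin-negative replicate 5 (149 CPM) and Cd40-null replicate 1 (103 CPM). Biotin-positive replicate 2 was close to replicate 5 for both, at 98.3 beside 96.6 CPM of Rac1 and 79.0 beside 78.7 CPM of Rab10.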
